A study of Homo sapiens with 9 samples.

Results

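The BCL2 family decides whether the mitochondria of a cell release their contents and start apoptosis. Its guides were taken from the genome-wide knockout screen as all guides whose target was 1 of 17 genes: 6 anti-apoptotic, 3 effector and 8 BH3-only genes. They numbered 68 of 76441 gene-targeting guides, 4 for each gene, beside 1000 control guides without a target. The cells were HEL-Cas9, JAK2-mutated erythroleukemia cells of an established human line, grown with puromycin and blasticidin and infected with the Brunello library. In such a screen each cell loses 1 gene, and the share of reads of a guide falls when loss of its gene slows or kills the cells. The data hold 1 library from the start (day 0), 4 from cells kept 12 days in DMSO and 4 from cells kept 12 days in 200 nM ruxolitinib (RUX), an inhibitor of the JAK2 kinase. All groups are the same cell line with the same library, and they differ only in time and drug. Per the study's methods each treatment was run in quadruplicate. Whether the cells were infected separately is not given in the sources used here, so p-values measure the spread between these libraries, which may be technical in part.

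Anti-apoptotic members such as BCL2, BCL-XL (encoded by BCL2L1) and MCL1 bind and hold in check the effectors BAX and BAK1, which can open pores in the outer mitochondrial membrane. BH3-only members such as BIM (encoded by BCL2L11), PUMA (BBC3) and NOXA (PMAIP1) respond to stress by binding the anti-apoptotic members, and some of them also activate the effectors directly. Cells of the red cell lineage are known to rely on BCL-XL, whose gene is a target of STAT5 downstream of JAK2.

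Libraries held between 19631338 and 26611323 reads on guides, with a median of 209 to 258 reads per guide. DMSO replicate 3 stood apart, with an SD of 0.46 over its control guides against 0.26 to 0.30 in the other 7 libraries at day 12. The score of a guide is ln((value + 5)/(day 0 value + 5)) after libraries were scaled to the control guides, and the score of a gene is the mean over its guides. Scores below −0.5 were counted as low. A guide was scored if its day 0 value reached 30, which 67 of the 68 member guides did. Over 990 scored control guides, 95% of mean scores lay between −0.41 and 0.44 under RUX and between −0.53 and 0.44 under DMSO. Over all genes, scores had a median of −0.096 in RUX and −0.092 in DMSO. When libraries were scaled over all guides in place of the control guides, these medians were −0.013 and −0.016, so scores are best read against them.

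Of the 17 genes, 2 lay below −0.5 in each condition, BCL2L1 and MCL1, both anti-apoptotic. Over all 19112 scored genes, 4.66% lay below −0.5 under RUX and 4.47% under DMSO. Under RUX the other 15 members spread between −0.28 and 0.28, and under DMSO between −0.48 and 0.30. Of the 11 effector and BH3-only genes, 0 lay below −0.5 and 6 lay above 0 under RUX, with a median of 0.04, while 28.2% of all genes lay above 0. Under DMSO 4 of the 11 lay above 0, with a median of −0.03, against 29.8% of all genes. In limma, with p adjusted over all genes, BCL2L1 under RUX was the 1 member that passed against day 0, where 0.534% of all genes were called lower and none higher. Under DMSO 0 members passed, where 0.46% of all genes were called lower. At an unadjusted p under 0.05, 2 members were lower under RUX, where 8.34% of all genes were, and 4 under DMSO, where 8.29% were. None were higher, where 0.481% and 0.617% of all genes were. Among single guides 6 of 67 lay below −0.5 under RUX (11.9% of all gene-targeting guides) and 8 of 67 under DMSO (12.2% of all), and BCL2L1 and MCL1 held 5 of the 6 and 4 of the 8. No member guide passed limma against day 0, and no guide of any gene did. At an unadjusted p under 0.05, 3 of 67 were lower and 1 higher under RUX, where 3.27% and 1.11% of all gene-targeting guides were, and 3 lower and 0 higher under DMSO, where 3.18% and 1.2% were. The 3 lower guides in each condition were sg_1642 and sg_1644 of BCL2L1 and sg_35600 of BBC3, and the higher guide was sg_26752 of BCL2L11.

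BCL2L1 lies on chromosome 20 of GRCh38, from 31664452 to 31723989 on the minus strand, and was the lowest member in both conditions. Its scores were −1.12, −0.90, −0.85 and −1.42 in DMSO replicates 1 to 4 and −1.67, −0.97, −1.23 and −1.26 in RUX replicates 1 to 4. Every library lay well below day 0, and the ranges of the conditions overlapped. Under RUX the mean was −1.28 ± 0.29 (SD, n = 4 libraries; standard error 0.27; adjusted p = 0.034 from limma). This equals 27.8% of the starting level and ranked 44 of 19112 genes from the lowest. Under DMSO it was −1.07 ± 0.26 (SD, n = 4; adjusted p = 0.081 from limma), or 34.2%, and ranked 85. For comparison, JAK2 itself stood at −1.23 under RUX and −1.11 under DMSO on 3 guides. Without the guide farthest from the others JAK2 was at −0.88 and −0.75.

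The BCL2L1 score rests on 3 guides with different scores. Guide sg_1642 had 90 reads at day 0, then 25, 25, 24 and 7 reads under DMSO and 9, 11, 5 and 11 under RUX. Guide sg_1644 had 144 reads at day 0, then 15, 45, 81 and 47 under DMSO and 28, 65, 50 and 36 under RUX. Both were lower than every one of the 990 control guides in either condition, with mean scores under RUX of −1.98 ± 0.23 and −1.20 ± 0.29 (SD, n = 4) and under DMSO of −1.48 ± 0.45 and −1.28 ± 0.56. The third, sg_1643, had 104 reads at day 0, then 96, 90, 69 and 44 under DMSO and 22, 110, 81 and 44 under RUX. Its mean scores were −0.46 ± 0.36 under DMSO and −0.66 ± 0.60 under RUX, and in RUX replicate 2 its score was −0.10. The fourth, sg_1641, started from 14 reads, too few to be scored, and had 10, 43, 17 and 20 reads under DMSO and 8, 38, 1 and 24 under RUX, with no common direction. With this guide kept, the gene score was −0.99 under RUX (adjusted p = 0.13 from limma).

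The direction of BCL2L1 did not depend on the settings, but its call under RUX did. The score ran from −1.59 without the guide farthest from the others to −0.93 with guides of at least 100 at day 0, and 8 of 22 alternatives kept it past the adjusted threshold, with adjusted p from 0.0047 to 0.32. Without RUX replicate 1 it was −1.15 (adjusted p = 0.060 from limma), without RUX replicate 3 −1.30 (adjusted p = 0.059) and without RUX replicate 4 −1.29 (adjusted p = 0.055). On reads summed per gene it was −1.07 by edgeR (adjusted p = 0.20) and −1.07 by DESeq2 (adjusted p = 0.24). Neither tool scaled libraries to the control guides. Over all genes their medians were 0.008 and 0.003 under RUX and 0.011 and 0.007 under DMSO. Copy number was not analysed here. Its 20 nearest neighbours had medians of −0.20 (RUX) and −0.18 (DMSO), lower than that of all genes, and after subtracting it BCL2L1 stood at −1.08 (adjusted p = 0.15 from limma) and −0.90.

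MCL1, a short-lived anti-apoptotic protein, lies on chromosome 1, from 150560895 to 150579738. Its scores were −0.53, −0.55, −0.70 and −0.54 in the DMSO libraries and −0.52, −0.59, −0.24 and −0.87 in the RUX libraries, all below 0. The mean was −0.58 ± 0.08 (SD, n = 4) under DMSO and −0.56 ± 0.26 under RUX, ranks 586 and 677 of 19112, and left 56.1% and 57.2% of the day 0 level. Neither passed (adjusted p = 0.37 from limma in both), and without RUX replicate 4 the score under RUX was −0.45, above −0.5. The 20 nearest neighbours of MCL1 had medians of −0.15 in both conditions. After subtracting them MCL1 stood at −0.40 under RUX and −0.42 under DMSO, and by edgeR it was at −0.33 under RUX.

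Guides of MCL1 had different scores, with 2 of 4 below −0.5 in each condition. Guide sg_11230 had 279 reads at day 0, 143, 142, 161 and 110 under DMSO and 135, 78, 266 and 80 under RUX, and sg_11229 had 70 at day 0, 68, 31, 15 and 35 under DMSO and 31, 46, 18 and 14 under RUX. Their mean scores lay between −0.98 and −0.78. Guide sg_11231 had 150 reads at day 0, 79, 130, 89 and 158 under DMSO and 141, 134, 257 and 212 under RUX, so it was near its starting level under RUX with a score of 0.10 ± 0.36 (SD, n = 4) and lower under DMSO with −0.41 ± 0.29. Guide sg_11232, with 155 reads at day 0, had 79, 124, 183 and 136 under DMSO and 115, 150, 160 and 36 under RUX. Its scores of −0.32 under DMSO and −0.48 under RUX were above −0.5.

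The other 4 anti-apoptotic genes had scores between −0.17 and 0.11 in both conditions. BCL2, the founding member, on chromosome 18 from 63123346 to 63320128, had scores from 0.06 to 0.17 under DMSO and from 0.02 to 0.16 under RUX, with means of 0.10 ± 0.05 and 0.11 ± 0.07 (SD, n = 4), ranks 16653 and 17117 of 19112 from the lowest. Its guides disagreed, since sg_1633 had 188 reads at day 0, 299, 214, 716 and 434 under DMSO and 472, 441, 270 and 305 under RUX, while sg_1635 and sg_1636 averaged between −0.23 and −0.10. Without the guide farthest from the others BCL2 stood at −0.05 under DMSO and −0.04 under RUX. BCL2L2, which encodes BCL-w, had means of −0.11 ± 0.08 under DMSO and −0.17 ± 0.10 under RUX. One of its guides, sg_1646, had 275 reads at day 0, 156, 190, 150 and 205 under DMSO and 173, 276, 223 and 143 under RUX, and was below −0.5 under DMSO alone with −0.56. BCL2A1 had means of −0.14 ± 0.19 and −0.13 ± 0.10. BCL2L10 had a mean of 0.09 ± 0.15 under DMSO and −0.12 ± 0.15 under RUX.

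All 3 effector genes lay above 0 under RUX and 2 of the 3 under DMSO, and none of their 12 guides lay below −0.5 in either condition. Over all genes 28.2% lay above 0 under RUX and 29.8% under DMSO. Of all gene-targeting guides 11.9% and 12.2% lay below −0.5, so 0 of 12 is not far from that share. BOK, an effector outside the main pair, had scores of 0.34, 0.26, 0.38 and 0.22 under DMSO, all 4 of its guides above 0, and 0.26, 0.25, 0.27 and 0.08 under RUX. Its means were 0.30 ± 0.07 under DMSO and 0.22 ± 0.09 under RUX (SD, n = 4; adjusted p = 0.58 and 0.72 from limma). BAX had −0.05 and −0.16 in DMSO replicates 2 and 3, 0.07 and 0.13 in DMSO replicates 1 and 4, and 0.16, 0.08, 0.29 and 0.29 in RUX replicates 1 to 4. The means were −0.00 ± 0.13 under DMSO and 0.21 ± 0.10 under RUX (SD, n = 4; adjusted p = 0.73 against day 0). Most of the RUX value came from sg_1595, which went from 157 reads at day 0 to 280, 208, 153 and 324 under DMSO and 344, 430, 237 and 322 under RUX, and without the guide farthest from the others BAX stood at 0.06 under RUX. BAK1 had means of 0.07 ± 0.12 and 0.10 ± 0.09, and its 4 guides ran from −0.24 to 0.25 over both conditions.

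Among the 8 BH3-only genes, the lowest was BBC3, which encodes PUMA, with means of −0.48 ± 0.21 under DMSO and −0.28 ± 0.09 under RUX (SD, n = 4; adjusted p = 0.43 and 0.71 from limma). The DMSO value was set largely by sg_35600, which had 152 reads at day 0, 39, 60, 71 and 32 under DMSO and 52, 119, 58 and 45 under RUX, with mean scores of −1.19 ± 0.31 and −0.90 ± 0.34. The guide with most reads, sg_35601, had 620 reads at day 0 and 839, 845, 952 and 706 under DMSO. Its mean score under DMSO was 0.17. Without the farthest guide BBC3 stood at −0.24 under DMSO and −0.07 under RUX, and by edgeR, on reads summed over guides, at −0.035 and 0.06. Without DMSO replicate 2 BBC3 was below −0.5 under DMSO, at −0.58.
BAD, whose protein is held inactive by phosphorylation downstream of growth factors, had scores of −0.56, −0.30, −0.33 and −0.26 under DMSO and −0.33, −0.13, −0.28 and −0.04 under RUX, all below 0. Its means were −0.36 ± 0.14 and −0.20 ± 0.14 (SD, n = 4; adjusted p = 0.56 and 0.79 from limma), and its 4 guides were below 0 in both conditions. BAD and BBC3 were the 2 genes of the 11 with an unadjusted p under 0.05 under DMSO.
PMAIP1, which encodes NOXA, a partner of MCL1, had a mean of 0.24 ± 0.22 under DMSO, with all 4 guides above 0 and DMSO replicate 3 highest at 0.53, and 0.10 ± 0.15 under RUX. BIK, BMF and HRK, further BH3-only genes, had means between −0.17 and −0.04 in both conditions. BID, which links death receptors to the mitochondria after cleavage by caspase 8, stood at −0.03 ± 0.11 under DMSO and 0.04 ± 0.12 under RUX.

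BCL2L11, which encodes BIM, was the highest member under RUX. Its scores were 0.03, −0.17, 0.36 and −0.04 under DMSO and 0.28, 0.15, 0.27 and 0.42 under RUX, with means of 0.05 ± 0.23 and 0.28 ± 0.11 (SD, n = 4; adjusted p = 0.69 under RUX from limma). All RUX libraries were above day 0, and DMSO replicate 3 lay within their range. Its 4 guides ranged widely under RUX, from −0.33 to 1.09. The highest, sg_26752, started from 40 reads, had 116, 35, 156 and 36 under DMSO and 159, 130, 128 and 141 under RUX, and stood above all 990 control guides under RUX. The other 3 guides had scores of −0.33, 0.07 and 0.28 under RUX. Without sg_26752, which the minimum of 100 at day 0 removes, BCL2L11 stood at 0.01 under RUX.

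The comparison of RUX with DMSO asks whether the drug changed the effect of losing a member. Differences between the conditions ran from −0.21 to 0.23 over the 17 genes, and none passed limma, where adjusted p lay between 0.55 and 0.997. Limma called no gene at all, with none lower and none higher, while edgeR called 4 lower and 2 higher and DESeq2 25 lower and 6 higher, with no member among them. At an unadjusted p under 0.05, 2 members were higher under RUX and 0 lower, where 3.93% of all genes were higher and 4.86% lower. In 0 of the 17 genes did the libraries of the conditions stay apart without overlap, where 2.1% of all genes had all RUX libraries above all DMSO libraries and 2.54% had them below. In two-sided exact permutation tests of 4 against 4 libraries, which cannot go below 0.029, the p of the 17 members ran from 0.057 to 1.00.

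The 2 genes with an unadjusted p under 0.05 were BCL2L11 and BAX, both pro-apoptotic. For BAX the difference was 0.21 (95% confidence interval 0.01 to 0.41, standard error 0.09; limma adjusted p = 0.55; exact permutation p = 0.057), and 3 of its 4 guides were higher under RUX. It was 0.16 without DMSO replicate 3, 0.13 by edgeR and at most 0.29 in the alternatives. For BCL2L11 it was 0.23 (95% confidence interval 0.00 to 0.46, standard error 0.11, limma adjusted p = 0.57, exact permutation p = 0.11), with 3 of 4 guides higher. The BCL2L11 difference was 0.34 without DMSO replicate 3 and 0.08 without sg_26752. BBC3 and BAD stood 0.20 and 0.17 higher under RUX, with 95% confidence intervals of −0.05 to 0.45 and −0.06 to 0.39. The BBC3 difference was 0.30 without DMSO replicate 2 and 0.096 by DESeq2, and that of BAD was 0.099 without DMSO replicate 1. In the other direction BCL2L10 was 0.09 under DMSO and −0.12 under RUX, with all 4 guides lower under RUX and a difference of −0.21 (95% confidence interval −0.42 to 0.00; exact permutation p = 0.086), which was −0.14 without DMSO replicate 3 and −0.14 without RUX replicate 3.
BCL2L1 differed by −0.21 (95% confidence interval −0.56 to 0.15; adjusted p = 0.76 from limma; exact permutation p = 0.34), and the difference was −0.08 without RUX replicate 1, which had the lowest score, and −0.32 without DMSO replicate 4. MCL1 differed by 0.02 (95% confidence interval −0.26 to 0.30; adjusted p = 0.98 from limma). Intervals of 15 of the 17 members held 0. Over all 17 members the lowest interval end was −0.56, for BCL2L1, and the highest was 0.46, for BCL2L11. Differences within a member's own interval could not be told from its estimate at this depth and number of libraries.

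Of single member guides 0 of 67 passed limma between the conditions, and no guide of any gene did. At an unadjusted p under 0.05, 4 of 67 (5.97%) were higher under RUX, where 3.93% of all gene-targeting guides were, and 0 were lower, where 4.31% were. The 4 guides were sg_11231 of MCL1, which differed by 0.52, sg_26752 of BCL2L11 by 0.69, sg_1562 of BAD by 0.41 and sg_1727 of BID by 0.40. Guide sg_1727 had 226 reads at day 0, 162, 230, 121 and 249 under DMSO and 259, 302, 298 and 205 under RUX, and sg_1562 had 108 reads at day 0, 67, 90, 65 and 74 under DMSO and 90, 152, 85 and 117 under RUX. In all 4 genes at least 1 other guide was lower under RUX, as sg_26749 of BCL2L11 was, by −0.06.

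Guides against other genes of the pathway were read from 5 lists, which were chosen with earlier results of these data known. Of 11 apoptosome and caspase genes, 0 lay below −0.5 in either condition, with medians of −0.01 under RUX and −0.15 under DMSO. Of 9 death receptor genes 0 lay below −0.5, and of 12 other genes with BCL2-like domains or names 0 did. Over all genes 4.66% lay below −0.5 under RUX and 4.47% under DMSO, so counts of 0 in lists this short are near that share. Among 8 IAP proteins and their antagonists, BIRC5, which encodes survivin and is needed for chromosome segregation, lay below −0.5 under RUX at −0.63 ± 0.19 (SD, n = 4; adjusted p = 0.26 from limma) and stood at −0.45 under DMSO. Without its farthest guide BIRC5 was at −0.34 under RUX, and its difference between the conditions turned from −0.18 to 0.02. No gene of the 5 lists passed limma against day 0 or between the conditions. Against day 0, 0.534% of all genes were called lower under RUX and 0.46% under DMSO. Between the conditions limma called no gene at all.

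Of the regulators of BCL2 family proteins, 5 of 15 lay below −0.5 under RUX and 2 of 15 under DMSO, where 4.66% and 4.47% of all genes did, with a median of −0.21 in both conditions. This list too was chosen with earlier results of these data known, so setting its counts beside those shares is not a test. FBXW7, a ubiquitin ligase receptor whose targets include MCL1, stood at −0.68 ± 0.24 under RUX and −0.40 ± 0.39 under DMSO (SD, n = 4). By edgeR, where the median over all genes was 0.008 against −0.096 in the main setting, FBXW7 was at −0.26 under RUX. Under DMSO it was at −0.12 without its farthest guide, −0.25 without DMSO replicate 3 and −0.57 without DMSO replicate 2. USP9X, a deubiquitinase that stabilises MCL1, stood at −0.57 ± 0.16 and −0.36 ± 0.14. BAG1, a chaperone partner that binds BCL2, stood at −0.57 ± 0.32 and −0.59 ± 0.15 on 3 guides, and at −0.05 and −0.06 with no minimum at day 0. Without RUX replicate 1 BAG1 was at −0.47 under RUX. UBE2K, a ubiquitin-conjugating enzyme, had −0.58 ± 0.07 and −0.58 ± 0.15, and MARCH5, a ubiquitin ligase of the outer mitochondrial membrane that was chosen after its value was seen, −0.57 ± 0.17 and −0.32 ± 0.14. Adjusted p under RUX lay between 0.23 and 0.44 for these 5 genes, and MARCH5 had an adjusted p of 0.047 where the variance trend followed the guide level. By edgeR UBE2K was at −0.43 under RUX, and without its farthest guide MARCH5 was at −0.37. With libraries scaled over all guides USP9X, MARCH5 and BAG1 all lay above −0.5 under RUX, at −0.496, −0.486 and −0.488.
In 4 of the 55 genes on the 5 lists, named after their values were seen, the scores of the conditions did not overlap, where 2.1% of all genes were higher and 2.54% lower without overlap. Higher under RUX were DFFA, the inhibitor of the caspase-activated DNase, by 0.39 (adjusted p = 0.39 from limma), CFLAR, which encodes the caspase 8 inhibitor c-FLIP, by 0.35 (adjusted p = 0.41) and HUWE1, a ubiquitin ligase of MCL1, by 0.21 (adjusted p = 0.59). Lower was TNFRSF10B, a receptor of the death ligand TRAIL, by −0.19 (adjusted p = 0.54). CFLAR differed by 0.07 with guides of at least 100 at day 0, and DFFA had an adjusted p of 0.040 by DESeq2.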

How the data were processed

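Guide reads were counted by the authors with MAGeCK. The deposited values are a signal per guide, whole reads times 1 factor per library, and in all 9 libraries 100% of values came out as whole reads within 0.001. The authors' own beta scores, corrected for copy number, were not used here. Depth and guide read counts are these recovered reads, and counting error is larger for guides with few reads.

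Libraries were scaled by the median ratio over control guides. Scores used a pseudocount of 5, a day 0 minimum of 30 per guide and at least 2 such guides per gene. Gene scores were tested with limma 3.58.1 in R 4.3.3, with a mean-variance trend over all 9 libraries, and p was adjusted by Benjamini-Hochberg over 19112 genes at 0.05. Day 0 is 1 library, assumed to vary like the others. RUX and DMSO were also compared by exact permutation. edgeR 4.0.16 and DESeq2 1.42.0 on recovered reads summed per gene were alternatives, beside other scalings, pseudocounts, filters and left-out libraries. Positions are those of GENCODE release 44 on GRCh38. Scripts were tested on simulated data. The members, the pathway lists and the rule for named genes (all 17 members, and from each of the 5 pathway lists up to 4 genes that lay below −0.5 or were called, lowest first, with JAK2 as a reference) were chosen with earlier results of these data known. The labels do not say what libraries with the same replicate number share, and the main test did not pair them. Their deviations from the condition mean correlated between −0.127 and 0.033 over all genes, which cannot show whether a culture was shared.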

Additional observations from a re-analysis of the deposited data

Results flagged for a closer look

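In MCL1, DMSO replicate 3 stood apart at −0.70, with the other 3 DMSO libraries between −0.55 and −0.53. In BOK, RUX replicate 4 stood apart at 0.078, with the other 3 RUX libraries between 0.25 and 0.27. These were 2 of 56 groups of 4 libraries examined for a library far from the others, where chance gives about 1 in 20, or 2.8.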

How the results depend on the processing

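With 4 libraries a condition and 1 at day 0, the intervals of 15 of the 17 members between RUX and DMSO held 0. For BCL2L11, 1 guide with 40 reads at day 0 carried most of the value. The count of members below −0.5 under RUX was 1, BCL2L1 without MCL1, with values as deposited, scaling to library totals or over all guides, a pseudocount of 20, a day 0 minimum of 100, the neighbour median subtracted, edgeR and DESeq2, and ran from 1 to 2 with 1 library left out, the 1 being without RUX replicate 4. Of all genes, 891 lay below −0.5 under RUX in the main setting. That number was 616 as deposited, 651 scaled to totals, 611 scaled over all guides and 603 with a pseudocount of 20. It was 1065 with a day 0 minimum of 100, 516 with the neighbour median subtracted, 352 by edgeR and 363 by DESeq2. Under DMSO the count of members was 1 with a pseudocount of 20 and with the neighbour median subtracted, and ran from 2 to 3 with 1 library left out. All genes below −0.5 under DMSO numbered 855 in the main setting, 575 with a pseudocount of 20 and 526 with the neighbour median subtracted. Of all genes, 102 were called against day 0 under RUX and 88 under DMSO. These counts were 54 and 31 as deposited, 54 and 35 scaled to totals, 54 and 31 scaled over all guides, 6 and 0 with a pseudocount of 1, 267 and 222 with a pseudocount of 20, 59 and 16 with a day 0 minimum of 100, 0 and 0 with the median over guides, 3 and 0 without the farthest guide, 329 and 284 without the variance trend, 11 and 20 with the neighbour median subtracted, and 307 and 228 with the trend following the guide level, which was chosen after seeing the data. With 1 library left out they ran from 67 to 110 and from 35 to 76. Against day 0 under RUX, edgeR called 111 genes lower and 2 higher, and DESeq2 136 lower and 17 higher. Under DMSO, edgeR called 73 lower and 0 higher, and DESeq2 116 lower and 14 higher. Between RUX and DMSO limma called 0 genes (928 lower and 752 higher at an unadjusted p under 0.05), edgeR 6, DESeq2 31 and the trend following the guide level 9, with 0 members among them, and with 1 library left out the count ran from 0 to 0. The replicate block also called 0 genes and 0 member guides. Of 1876 single-gene values under the alternatives 1840 stayed on their side of the threshold, 32 lost and 4 gained a call, and 0 reversed a call. Among the 1840 were 93 values, not called in either setting, that changed sign. The causes were not tested.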
